A study of Mus musculus with 6 samples.

Results

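The 10 genes described here code for the antioxidant factor Nrf2, its inhibitor Keap1, enzymes whose genes Nrf2 is known to activate, and the superoxide dismutases of the cytosol and the mitochondria. They were found by gene symbol in a table of hippocampal RNA-seq, which held 1 row for each of the 10 among its 16060 rows. All 10 passed the filter on low values that 13321 rows passed. The libraries came from the hippocampus (HIPP) of adult male C57BL/6 mice, 1 mouse per library. The 3 mice of the Control group received saline by intraperitoneal injection, and the 3 mice of the MA group received methamphetamine (MA) by the same route in doses that escalated over 3 weeks. According to the study's methods, the open field and elevated plus maze tests were made on the day after those weeks and the animals were then sacrificed at once, so both groups had been through behavioral testing. The groups are called here by the labels of their libraries, on which the sign of every difference rests. The treatment targets no gene whose level could check those labels. Fos and Arc, genes that neuronal activity induces, were named after their values were seen. Fos was at a log2 value of 3.99 ± 0.27 in the libraries labelled Control and 2.38 ± 0.27 in those labelled MA, and Arc at 6.37 ± 0.25 and 4.57 ± 0.19 (SD, n = 3 each). The study reported both genes as higher in MA, by RNA-seq and by qPCR, which is opposite to the direction of these values. Whether the labels are assigned to the right groups was not tested.

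Nrf2, the product of Nfe2l2, is a transcription factor that the adaptor Keap1 normally hands to a Cul3 ubiquitin ligase for destruction. Oxidants and electrophiles modify cysteines of Keap1, Nrf2 then escapes, pairs with a small Maf protein and binds antioxidant response elements in the DNA near its target genes. Those targets make and recycle glutathione and thioredoxin and break down heme and quinones. In brain the pathway is best known from astrocytes. Superoxide itself is removed by the dismutases, of which Sod1 lies mostly in the cytosol and Sod2 in the mitochondrial matrix. The study was concerned with oxidative stress and mitochondria in MA-induced anxiety. The comparison of the MA with the Control libraries shows how the RNA of these genes stood in the HIPP of these mice. The study's measurements of reactive oxygen species were made in cultured astrocytes and PC12 cells, not in this tissue. In a bulk tissue sample, fewer cells of a type and less RNA per cell cannot be told apart.

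The promoter windows of RefSeq (GRCm38.p6, 250 bases before to 50 bases after a gene's start) were searched on both strands for the letters TGACNNNGC, a short form of the antioxidant response element, because this is the DNA through which the pathway is read out. Windows were given for 8 of the 10 genes, and Hmox1 and Gclc had none. A match was found for 5 of the 8, while 17.0% of the tested genes with a window held one. Counted by window, 12.4% of all 32851 windows held a match. The matches are printed below in capitals with 10 bases on each side, in the direction of the gene.
Nfe2l2: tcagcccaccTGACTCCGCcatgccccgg
Gclm: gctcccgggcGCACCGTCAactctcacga
Txnrd1: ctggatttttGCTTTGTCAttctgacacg
Srxn1: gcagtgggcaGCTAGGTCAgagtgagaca
Sod1: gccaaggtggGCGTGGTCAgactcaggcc

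The Nfe2l2 window lies at chr2:75704885-75704913 on the minus strand, and its match reads along the gene, 240 to 232 bases before the start. In the other genes, all on the plus strand, the match reads on the opposite strand. The Gclm window is chr3:122245413-122245441, with the match 134 to 126 bases before the start. For Txnrd1, 1 of its 3 windows held a match, at chr10:82859104-82859132, 92 to 84 bases before that start. The match of Srxn1 lies 28 to 36 bases after the start, in the transcribed part of the gene (chr2:152105542-152105570). That of Sod1 is at chr16:90220696-90220724, 56 to 48 bases before the start. The stricter form TGACTCAGC, whose letters are one case of the first, was in the window of none of the 8 genes and of 0.499% of the tested genes. A match is a run of letters and not evidence of binding, and sites outside the window were not searched.

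None of the 10 genes differed between the groups at an adjusted p-value under 0.05. The test was limma with Benjamini-Hochberg adjustment over all 13321 tested genes. It called 0.263% of all tested genes. An unadjusted p-value under 0.05 was also reached by 0 of the 10 (limma), against 10.4% of all tested genes. In the libraries labelled MA, 4 of the 10 were higher and 6 lower, and the median log2 difference was -0.11. The median over all tested genes was -0.010. The values and differences below are in log2 of RPKM plus 1 (RPKM, reads scaled by gene length and by library size), so that a difference of 1 is about 2-fold for well-expressed genes and understates the change of low ones. Permutation p-values are two-sided and exact, and with 3 libraries a group the smallest they can be is 0.1.

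Nfe2l2 codes for Nrf2 itself. Its log2 values were 2.84, 2.58 and 2.73 in Control replicates 1, 2 and 3 and 2.50, 2.22 and 2.65 in MA replicates 1, 2 and 3. MA replicates 1 and 2 were below every Control library, while MA replicate 3 lay within the Control range. The difference was -0.26 with a standard error of 0.14 (limma adjusted p = 0.576), and the exact permutation test gave p = 0.2. Without MA replicate 2, the lowest library, it was -0.14. Keap1, the inhibitor, stood the other way. It was 4.65, 4.69 and 4.72 in the Control libraries and 4.83, 4.83 and 4.76 in the MA libraries. All 3 MA libraries were above all 3 Control libraries, by a mean of only 0.12 (standard error 0.08, limma adjusted p = 0.647, exact permutation p = 0.1). Keap1 was the steadiest of the 10 genes, with SDs of 0.040 and 0.044 in the Control and MA groups. Its pooled SD was smaller than that of 95.8% of the 500 tested genes nearest to it in level.

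The ratio of Keap1 to Nfe2l2 RPKM joins these opposite differences within each library, so it is not separate evidence for them. It was 3.90, 5.01 and 4.51 in the Control libraries and 5.93, 7.53 and 4.95 in the MA libraries. The means were 4.47 ± 0.56 and 6.14 ± 1.30 (SD, n = 3 each), and MA replicate 3 again fell within the Control range. The exact permutation test on the log2 ratio gave a two-sided p of 0.2, or 0.3 adjusted over the 3 ratios examined here.

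Heme oxygenase 1 (Hmox1) opens the heme ring, and Nqo1 reduces quinones, the oxidized form that dopamine can take among others. These were the lowest 2 of the 10 genes. Hmox1 was 1.93, 1.90 and 1.97 in the Control libraries and 1.52, 2.002 and 1.73 in the MA libraries. The Control libraries lay within 0.07 of each other, and the MA libraries lay on both sides of them. Its mean difference of -0.18 (standard error 0.14) had a limma adjusted p of 0.715 and an exact permutation p of 0.4. For Nqo1 the Control values were 2.08, 1.99 and 2.13 and the MA values 1.58, 1.93 and 2.04. Only MA replicate 1 stood clearly below the rest. The difference was -0.22 (standard error 0.14, limma adjusted p = 0.652, exact permutation p = 0.2). Without MA replicate 1, the differences were -0.06 for Hmox1 and -0.08 for Nqo1, so that this library carried most of both. Without MA replicate 2 the Hmox1 difference was -0.30.

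**Figure D1:**
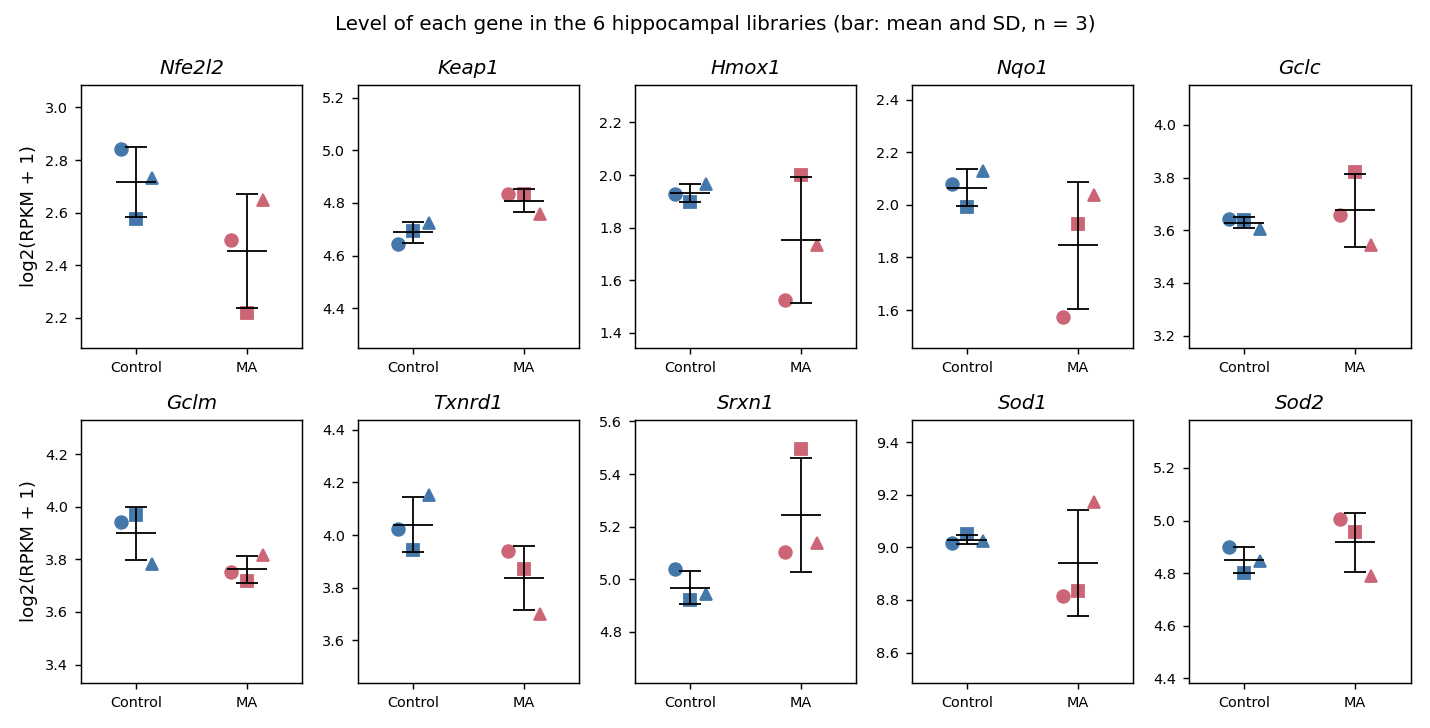
Log2(RPKM + 1) of each of the 10 genes in the 6 libraries, with circles, squares and triangles for replicates 1, 2 and 3 and black bars for the mean and SD of each group (n = 3). Every panel spans 1 log2 unit; the Control libraries lie close together for most genes, and the groups are apart without overlap for Keap1, Txnrd1 and Srxn1.

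Glutamate-cysteine ligase, which makes the first bond of glutathione, has a catalytic subunit (Gclc) and a modifier subunit (Gclm). Gclc was 3.64, 3.64 and 3.60 in the Control libraries and 3.66, 3.82 and 3.54 in the MA libraries, which lay on both sides of the Control values. The difference of 0.05 (standard error 0.10, limma adjusted p = 0.917, exact permutation p = 0.7) was the smallest of the 10 in size in this fit. Without MA replicate 2 it was -0.03, and without MA replicate 3 it was 0.11. The modifier subunit was 3.94, 3.97 and 3.78 in the Control libraries and 3.75, 3.72 and 3.82 in the MA libraries. MA replicate 3 and Control replicate 3 overlapped, and the difference was -0.14 (standard error 0.09, limma adjusted p = 0.670, exact permutation p = 0.2). The ratio of Gclm to Gclc RPKM was 1.25, 1.28 and 1.14 in the Control libraries and 1.07, 0.923 and 1.23 in the MA libraries. The group means were 1.23 ± 0.07 and 1.08 ± 0.15 (SD, n = 3 each), and MA replicate 3 fell within the Control range (exact permutation p = 0.2, adjusted p = 0.3).

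Thioredoxin reductase 1 (Txnrd1) recharges thioredoxin in the cytosol, and sulfiredoxin (Srxn1) repairs peroxiredoxins that peroxide has over-oxidized. The groups did not overlap for either gene, and they stood in opposite directions. Txnrd1 was 4.02, 3.94 and 4.15 in the Control libraries and 3.94, 3.87 and 3.70 in the MA libraries. The gap between the groups was small, since MA replicate 1 and Control replicate 2 differed by less than 0.01. The mean difference was -0.20 (standard error 0.10, limma adjusted p = 0.560, exact permutation p = 0.1), or -0.13 without MA replicate 3. Srxn1 had the largest difference of the 10 on this scale and the smallest unadjusted p, 0.0508 (limma). With a pseudocount of 0.1 or 0.01 the differences of Nfe2l2 (-0.31 and -0.32) and Nqo1 (-0.29 and -0.30) were larger in size than that of Srxn1 (0.28 in both). Its values were 5.04, 4.92 and 4.95 in the Control libraries and 5.10, 5.49 and 5.14 in the MA libraries. MA replicate 2 stood far above the other 5, which lay between 4.92 and 5.14. The difference was 0.28 with a standard error of 0.12 (limma adjusted p = 0.478), and the exact permutation test gave 0.1, the smallest p the design allows. Without MA replicate 2 it was 0.15, smaller in size than the -0.22 of Txnrd1 in the same fit. Together with Keap1, these were 3 of 10 genes whose groups did not overlap, where 17.5% of all tested genes had groups that did not overlap.

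The superoxide dismutases showed no common direction. Sod1 was 9.02, 9.05 and 9.02 in the Control libraries and 8.81, 8.83 and 9.17 in the MA libraries. The Control libraries were nearly equal, 2 MA libraries were below them and MA replicate 3 was above them. The difference was -0.09 (standard error 0.11, limma adjusted p = 0.835, exact permutation p = 0.4). Without MA replicate 3 it was -0.21, with a limma adjusted p of 0.0863, and without MA replicate 1 or 2 it was -0.027 or -0.036. Sod2 was 4.90, 4.80 and 4.85 in the Control libraries and 5.005, 4.96 and 4.79 in the MA libraries. Here MA replicates 1 and 2 were above the Control libraries and MA replicate 3 below them, and the difference was 0.07 (standard error 0.09, limma adjusted p = 0.852, exact permutation p = 0.5). It was 0.023 without MA replicate 1, 0.043 without Control replicate 2 and 0.13 without MA replicate 3. The ratio of Sod1 to Sod2 RPKM was 17.9, 19.7 and 18.7 in the Control libraries. In MA replicates 1 and 2 it was 14.4 and 15.1, and in MA replicate 3 it was 21.6 (exact permutation p = 0.4 between the groups, adjusted p = 0.4).

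**Figure D2:**
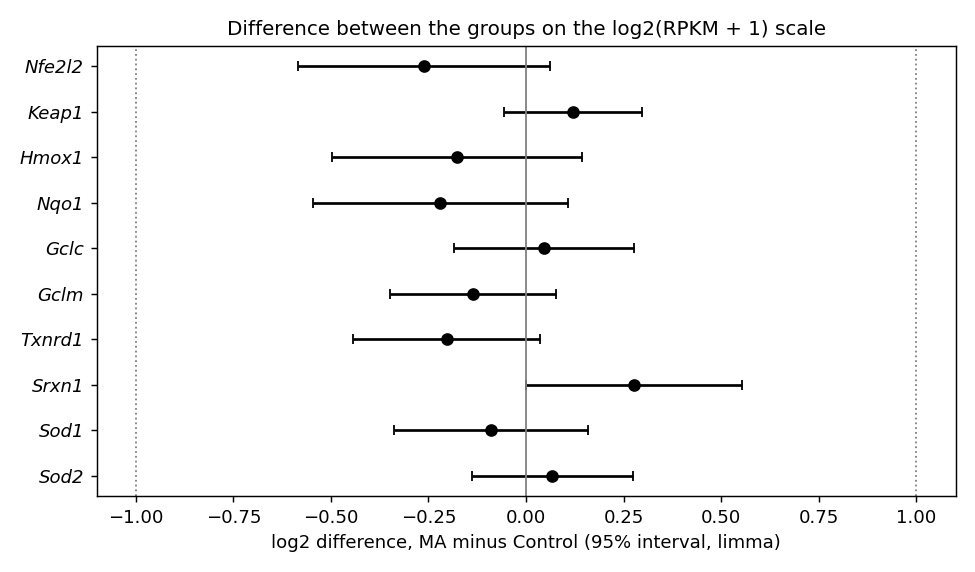
Log2 difference between the MA and Control means for each gene, as points with the 95% interval of limma as bars; dotted lines mark differences of -1 and 1. All 10 intervals cover 0, and none reaches -1 or 1.

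The 95% intervals of the differences show what size of change these libraries could have missed. The lowest lower end was -0.59, for Nfe2l2, and the highest upper end was 0.55, for Srxn1. Each interval is for its gene alone and is not adjusted for the number of genes. None of the 10 intervals thus reached a difference of 1 in either direction on this scale. With a pseudocount of 0.01 in place of 1, the differences of the low genes were somewhat larger, at -0.25 for Hmox1, -0.30 for Nqo1 and -0.32 for Nfe2l2 (limma adjusted p = 0.710, 0.652 and 0.580).

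The 10 genes varied more among the MA libraries than among the Control libraries. The SD was larger in the MA group for 9 of the 10, Gclm being the exception, and the median SD was 0.171 in the MA group and 0.0567 in the Control group. Over all tested genes the SD was larger in the MA group for 71.1%, with medians of 0.166 and 0.103. For Sod1 the SDs were 0.202 and 0.0174, and for Hmox1 0.239 and 0.0350. The lowest library was an MA library for 8 of the 10 genes, and the highest was an MA library for 6. These counts were not made over all tested genes. With 3 libraries a group, the SD of a single gene is known only roughly, and the difference in spread was not tested.

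Per gene length, the 10 genes covered a wide range of levels in HIPP, and the order was much the same in all libraries. Sod1 stood far above the rest at 522 ± 6.34 RPKM in the Control group and 494 ± 71.8 in the MA group (SD, n = 3 each), and only 1.1% of tested genes were higher. The next was Srxn1 at 30.3 ± 1.39 and 37.2 ± 5.97 RPKM, so that Sod1 exceeded it at least 10.1 times in each library. Sod2 (27.8 ± 1.01 and 29.3 ± 2.33 RPKM) and Keap1 (24.8 ± 0.712 and 27.0 ± 0.842 RPKM) followed. Srxn1 was above Sod2 and Sod2 above Keap1 in 6 of 6 libraries, though by as little as 1.07 and 1.02 times.

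Txnrd1, Gclm and Gclc formed a middle group with mean levels of 14.4, 13.3 and 11.6 RPKM over the 6 libraries. Txnrd1 was above Gclm in 4 of 6 libraries, by a mean log2 difference of 0.11 that was smaller than its SD of 0.17 over the libraries. Gclm was above Gclc in 5 of 6, by 0.18 with an SD of 0.165. Nfe2l2 was lower, at 5.59 ± 0.603 RPKM in the Control group and 4.52 ± 0.815 in the MA group. Nqo1 (3.19 ± 0.201 and 2.63 ± 0.580 RPKM) and Hmox1 (2.81 ± 0.0928 and 2.40 ± 0.567 RPKM) came last, and their order held in 5 of 6 libraries, by a mean log2 difference of 0.11 that was smaller than its SD of 0.13. Levels between genes depend on the gene length the authors divided by, which is not part of the table.

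**Figure D3:**
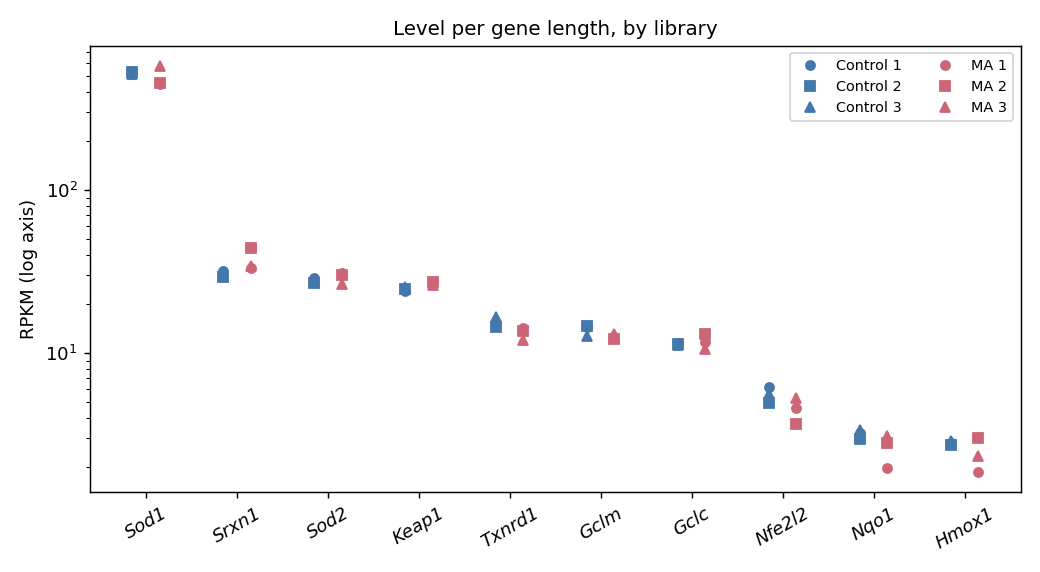
RPKM of the 10 genes per library on a log axis, in order of their mean level, with Control libraries in blue at the left and MA libraries in red at the right of each gene. Sod1 lies at least 10.1 times above the next gene in each library, and Nqo1 and Hmox1 are lowest.

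The other genes of the pathway were looked up in lists of regulators, further targets and enzymes that handle or make superoxide and peroxide. None of the genes in these 4 lists passed the adjusted threshold (limma). Of 26 tested regulators of Nrf2, 11 were higher and 15 lower in the MA libraries, with a median difference of -0.008, and 2 had an unadjusted p under 0.05. Both were lower, which is 7.69% of the 26, where 5.46% of all tested genes were lower at this threshold, and both code for parts of ubiquitin ligases. Siah2 was 3.12 ± 0.07 in the Control group and 2.64 ± 0.15 in the MA group (SD, n = 3 each), a difference of -0.47 (limma adjusted p = 0.219). Cul3, the scaffold of the ligase that Keap1 serves, was 5.44 ± 0.06 and 5.22 ± 0.03, a difference of -0.22 (limma adjusted p = 0.383), with the groups apart. The next by p were Cdkn1a and Prkcd, which differed by 0.50 and 0.68 with overlapping groups (limma adjusted p = 0.573 and 0.624). Sqstm1, whose protein binds Keap1 for autophagy, was the most abundant regulator at 264 ± 9.10 RPKM in the Control group and 239 ± 31.5 in the MA group, followed by Rbx1, the RING subunit of the Cul3 ligase, at 77.8 ± 2.04 and 74.0 ± 5.71. Sqstm1 shares 580 exonic bases with Mrnip and Cdkn1a 273 with AC167363.2, both on the other strand.

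Of 52 other Nrf2 targets that were tested, 29 were higher and 23 lower, with a median of 0.03. An unadjusted p under 0.05 was reached by 5, all higher in the MA libraries, which is 9.62% of the 52, where 4.99% of all tested genes were higher at this threshold. The 4 with the smallest p all had groups that did not overlap. In the whole list this held for 8 of the 52, where it held for 17.5% of all tested genes. Pgd, an NADPH-making enzyme of the pentose phosphate pathway, was 3.92 ± 0.03 in the Control group and 4.19 ± 0.04 in the MA group, a difference of 0.27 (limma adjusted p = 0.306). Gsta4, a glutathione transferase for lipid aldehydes, differed by 0.21 (limma adjusted p = 0.370). The low genes Txnrd3 and Aox1 differed by 0.36 and 0.50 (limma adjusted p = 0.277 and 0.350). Members of the glutathione transferase family share sequence, so reads of Gsta4 could be split with its relatives. The iron store subunits Fth1 and Ftl1 were the most abundant of the list, and their differences were -0.07 and -0.13. Ftl1 shares 109 exonic bases with Gm22133 on the same strand and 355 with Gm10252 on the other.

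Among 24 tested genes that handle superoxide and peroxide, 13 were higher and 11 lower, with a median of 0.03, and 3, or 12.5%, were higher at an unadjusted p under 0.05, against 4.99% of all tested genes. These were Ucp2, an uncoupling protein of mitochondria, Gpx3, a secreted glutathione peroxidase, and Sod3, the extracellular superoxide dismutase. Sod3 is the closest relative in function of the dismutases above. It was 1.74, 1.78 and 1.85 in the Control libraries and 2.13, 2.05 and 2.26 in the MA libraries. The groups did not overlap, and the difference was 0.36 (standard error 0.10, limma adjusted p = 0.311). Ucp2 and Gpx3 differed by 0.60 and 0.62 (limma adjusted p = 0.252 and 0.266), also with the groups apart, and Gpx8 by 0.41 with overlap (limma adjusted p = 0.507). Ucp2 shares 305 exonic bases with Dnajb13 on the other strand. The abundant peroxidases Gpx4 and Prdx5 had differences of 0.04 and -0.006, and Prdx5 shares 409 exonic bases with Trmt112 on the other strand.

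Of 12 tested sources of superoxide or peroxide, 7 were higher and 5 lower, with a median of 0.04, and an unadjusted p under 0.05 was reached by 2 of the higher and 2 of the lower genes, 16.7% of the list each, against 4.99% higher and 5.46% lower over all tested genes. Endothelial nitric oxide synthase (Nos3) was 2.28 ± 0.05 in the Control group and 1.79 ± 0.05 in the MA group, a difference of -0.49 (limma adjusted p = 0.138), the smallest adjusted p of the 4 lists. It shares 1040 exonic bases with the antisense gene Gm15587 and 294 with Atg9b, both on the other strand, and counting is not stated to have used strand. Xdh, which can oxidize purines with release of superoxide, and Maob, which breaks down monoamines with release of hydrogen peroxide, were higher by 0.59 and 0.34 (limma adjusted p = 0.223 and 0.350). Nox1 was lower by a mean difference of -0.39 with overlapping groups (limma adjusted p = 0.440), and it shares 399 exonic bases with Cstf2. The most abundant of the list, Rac1 and Poldip2, had differences of -0.16 and 0.09, and Rac1 shares 2309 exonic bases with Daglb on the other strand. The phagocyte oxidase gene Cybb, named after its values were seen, was among 5 listed sources that fell under the filter on low values.

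**Figure D4:**
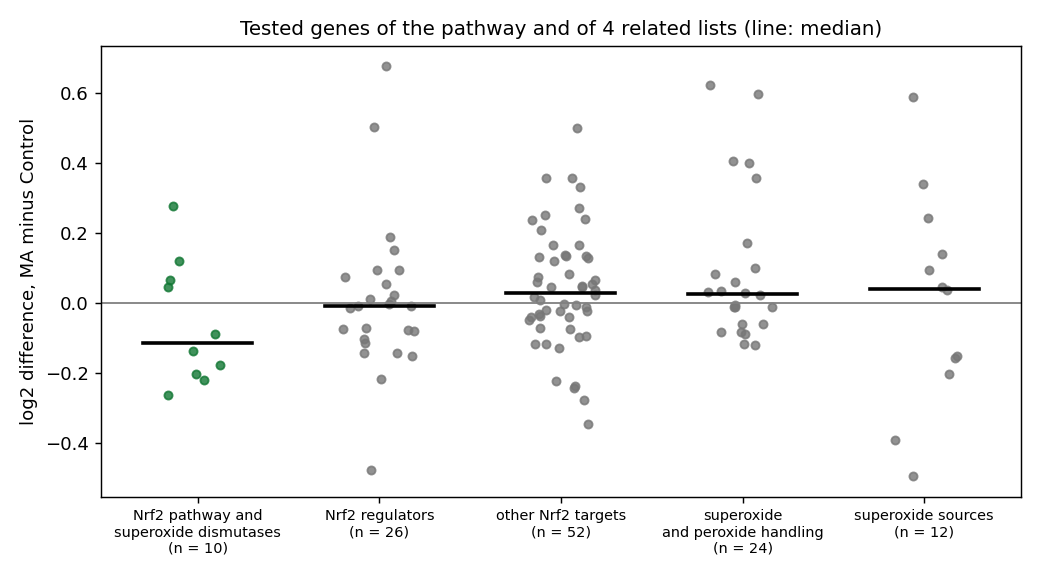
Log2 difference between the MA and Control means for the 10 genes (green) and for the tested genes of 4 related lists (grey), 1 point per gene, with the median as a black line. The medians lie between -0.11 and 0.04, and the points of every list lie on both sides of 0.

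All 6 libraries share 1 highest value, and above the median rank their sorted values differed by at most 0.0285. The depth is unknown, because read totals were not given with these values. The libraries were not alike in all respects. Markers of choroid plexus, the epithelium in the ventricles that borders HIPP, were higher in the MA libraries for 10 of 10 genes, of which 5 were called (Enpp2, Aqp1, Clic6, Kl and Folr1). Their summed level was 101 to 478 RPKM in the Control libraries and 1933 to 5318 in the MA libraries, with the highest sum in MA replicate 3. Most of that sum was Ttr, which was not called (limma adjusted p = 0.0887), and the other 9 markers summed to 43.5 to 67.9 and 189.2 to 284.8 RPKM. In MA replicate 3 Ttr was at the highest value that all 6 libraries share, a log2 value of 12.298, so its level there may be capped. Markers of red blood cells were higher for 5 of 5 tested genes, with 3 called (Hba-a1, Hba-a2 and Hbb-bs) and sums of 1599 to 2024 and 3319 to 4378 RPKM. Meningeal markers were higher for 8 of 8 genes, 3 of them at an unadjusted p under 0.05 and 0 called (limma), and their sums overlapped at 907 to 1359 and 1140 to 1571 RPKM. Without Ptgds, the most abundant of them, the sums were 61.9 to 83.0 and 132.2 to 232.7 RPKM and did not overlap. Sums of the neuron markers were 4543 to 4796 and 4111 to 4972 RPKM, those of the astrocyte markers 1022 to 1101 and 896.5 to 1208, and those of the microglia markers 244.9 to 263.5 and 252.4 to 257.9. Oligodendrocyte markers were lower for 7 of 8 genes with a median difference of -0.20, while their sums, mostly Mbp, were 2997 to 3306 and 2796 to 3474 RPKM. For the rest, endothelial and pericyte markers summed to 220.9 to 244.2 and 242.3 to 273.6, and macrophage and neutrophil markers to 4.29 to 4.47 and 3.42 to 11.4, the highest in MA replicate 3. Of these 6 lists, with 4 to 10 tested genes each, 0 genes were called, and 3 had an unadjusted p under 0.05 (limma). Over all tested genes, 0.263% were called and 10.4% reached that unadjusted threshold. No marker of choroid plexus or red blood cells was at 0 in any library. What part the choroid plexus, meningeal, oligodendrocyte and blood RNA had in the values of the 10 genes and of the 4 related lists was not tested.

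**Figure D5:**
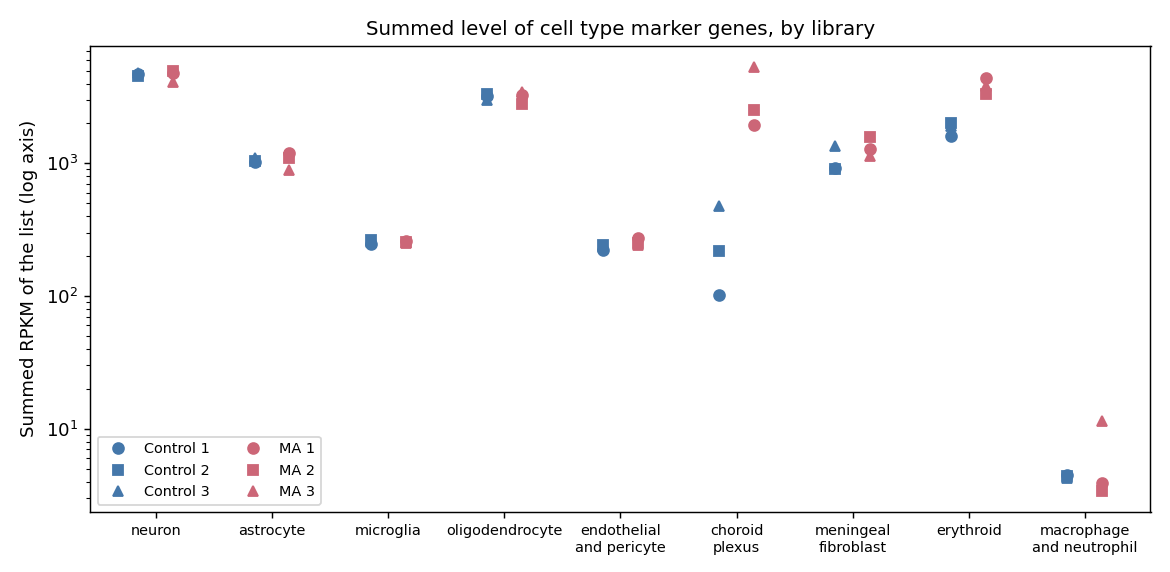
Summed RPKM of each list of cell type markers per library on a log axis, with Control libraries in blue and MA libraries in red and circles, squares and triangles for replicates 1, 2 and 3. The choroid plexus and erythroid sums of all 3 MA libraries lie above those of all 3 Control libraries, while neuron, astrocyte and microglia sums overlap.

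MA replicate 3 had the highest choroid plexus sum and the lowest mean correlation with its own group, 0.978 across tested genes, against 0.984 and 0.985 for the other MA libraries. It was also the library that lay apart from MA replicates 1 and 2 for Sod1 and Sod2. Without it, 0 of the 10 genes passed the adjusted threshold (limma), while 1.93% of all tested genes did. An unadjusted p under 0.05 was reached by 4 of the 10, namely Nfe2l2, Nqo1, Srxn1 and Sod1, and by 23.3% of all tested genes, against 10.4% with all libraries. In this fit Nfe2l2 and Nqo1 were at -0.36 and -0.31 (limma adjusted p = 0.161 and 0.211), Srxn1 at 0.33 and Sod1 at -0.21 (limma adjusted p = 0.169 and 0.0863). This library was singled out after the data were seen.

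The genes lie on 7 chromosomes. On GRCm38 (GENCODE M21) Nfe2l2 (ENSMUSG00000015839) is on chromosome 2 from 75675513 to 75704641, Keap1 (ENSMUSG00000003308) on chromosome 9 from 21229730 to 21239361, and Srxn1 (ENSMUSG00000032802) on chromosome 2 from 152105516 to 152111376. Sod1 (ENSMUSG00000022982) is on chromosome 16 from 90220754 to 90226329 and Sod2 (ENSMUSG00000006818) on chromosome 17 from 13006846 to 13040063. The exons of Keap1 share 510 bases with the antisense gene Gm16754, and those of Gclm share 296 bases with Gm17494 on the other strand and 244 with the pseudogene Gm6061. Reads from these stretches could not be assigned with certainty. The other 8 genes shared no exonic base with another annotated gene.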

How the data were processed

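Hippocampal RNA of 3 Control and 3 MA mice was sequenced. According to the study's methods, Hisat2 alignment and featureCounts counting preceded the authors' conversion to FPKM by gene length. The submitters' processing notes instead name Bowtie 0.12.2 and mm8 and mm9, so the build is uncertain. The deposited values are log2 of RPKM plus an offset inferred as 1, and no source used here describes the log transform or why the libraries share a distribution. Base 2 was read from the sum of the back-transformed values, which is near 488000 per library (488334 in Control replicate 1).

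Genes with a back-transformed RPKM of at least 0.5 in at least 3 libraries were tested with limma 3.58.1 in R 4.3.3 (eBayes with a trend, no covariate, Benjamini-Hochberg adjustment), and single genes with exact two-sided permutation tests (scipy 1.17.1). On 10 simulated tables of 13321 genes, a median of 75.8% of 200 genes changed by 1 was recovered, and a median of 5.31% of the calls were false. The simulated tables used 1 SD per gene for both groups. Smaller changes, such as the differences of the 10 genes, were not simulated. Each library is 1 mouse. Same-numbered libraries correlated at -0.197, -0.242 and -0.337 in their deviations, so the numbers were not taken as pairs. The 10 genes and the lists were chosen with earlier results of these data known. Genes named from the 4 related lists are the 4 with the smallest p and the most abundant 2, and Cybb, Fos, Arc, Ttr, Ptgds and Mbp were named after their values were seen. Coordinates are GENCODE M21, on whose identifiers 15987 of 16031 matched.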

Additional observations from a re-analysis of the deposited data

How the results depend on the processing

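The results for the 10 genes were recomputed under 15 alternatives: a pseudocount of 0.1 or 0.01, no filter, a minimum mean of 5, median centring, quantile normalization, no eBayes trend, limma's sample quality weights, the replicate number as a block, and leaving out each library in turn. Of 148 values so obtained, 147 kept their direction and 0 passed the adjusted threshold. The direction could not turn with no filter, the minimum mean of 5, no eBayes trend or the replicate block, which leave the difference itself unchanged. Median centring and quantile normalization changed the differences little, since the libraries already shared a distribution. Limma adjusted p-values ranged from 0.0677, for Srxn1 with sample quality weights, to 0.985. Gclc turned to -0.027 without MA replicate 2, and with a library left out it ranged up to 0.112, without MA replicate 3. Hmox1 and Nqo1 gave no value with the minimum mean of 5. The number of called genes among the 10 was 0 throughout. The number with an unadjusted p under 0.05 was 5 with sample quality weights and from 0 to 4 with a library left out. The 4 were found without MA replicate 3, where 23.3% of all tested genes reached this threshold. That share was not computed for the fit with weights, so the 5 cannot be read as a trait of the 10 genes. In that fit MA replicate 3 had the lowest weight, 0.194, and MA replicate 2 the highest, 2.45. Over all tested genes the count of 35 became 3 with no filter, 20 with the minimum mean of 5, 586 with sample quality weights and from 0 to 257 with a library left out. With the replicate block it was 15, and the block changed no call among the 10. With sample quality weights, 2 of 26 regulators, 1 of 52 other targets, 2 of 24 handling enzymes and 3 of 12 sources were called. In that fit 586 of all 13321 tested genes were called. Without MA replicate 3, 1 regulator, 1 handling enzyme, 0 other targets and 0 sources were called. There 1.93% of all tested genes were called. The remaining alternatives gave no call in these lists. The marker sums without the most abundant gene of each list were added after seeing the data. Depth is unknown, so no counting error can be given.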
